A study of Oryctolagus cuniculus with 54 samples.

Results

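The 100 genes described here were those with the lowest read counts in the lungs of preterm rabbit pups 3 and 7 days after delivery, set against preterm pups on the day of delivery, fetuses of gestational day 28 and term pups of gestational day 35. They were chosen from 29587 genes by their values in the 12 libraries of sequencing run 2. Each group value was the mean of log2(CPM + 1), where CPM is the gene's count scaled to a library total of 1000000. Genes whose lowest value over P0, F28 and T35 was at least 2.6 were kept, which left 8150, and they were ranked by that lowest value minus the higher of the P3 and P7 values. The first 100 are called the members, and the difference that ranked them is called the gap. Since every member came from those 8150 genes, the main counts and medians of members are set beside the same values over the 8150, all of which passed the filter of the main tests. The deposited table names genes by Ensembl identifier only and 0 of the 100 could be paired with a symbol, so each member is named by its rank and nothing is said of its function.

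Lungs of New Zealand White rabbits were sequenced with a 3′-end method, QuantSeq, in 54 libraries from 45 animals, and the pups of a time point came from different dams. Fetuses were taken by C-section on gestational day 20, 23, 25, 27, 28 or 29 (F20 to F29). Term pups were born naturally on day 31, stayed with their mothers in room air and were sampled on gestational day 31, 35, 37 or 42 (T31, T35, T37, T42), which is 0, 4, 6 or 11 days after birth. Preterm pups were delivered by C-section on day 28, kept in incubators at 21% oxygen, fed milk replacer by tube and sampled 0, 3 or 7 days later (P0, P3, P7). All RNA came from homogenates of the right lung, except that the fetuses of days 20 and 23 gave whole lungs. The preterm pups thus differed from the term pups in delivery, housing and feeding as well as in maturity, and these cannot be told apart.

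Before birth the rabbit lung passes from canals to sacs, and around term it begins to divide the sacs into alveoli. A pup delivered at the start of the saccular phase must make that step while breathing air, which is the setting in which bronchopulmonary dysplasia arises in preterm infants. In a homogenate of the whole organ a lower count can come from fewer cells of a type or from less RNA per cell, and these cannot be told apart.

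Library totals lay between 5771693 and 8073755 counts, with 7778938 for the P7 animal of run 3. Animals differed within T31: the members' median minus the median of the 8150 genes, both in log2(CPM + 1), was -0.42 in T31 animal 15 of run 1 and in T31 animal 18 of run 3, and between -0.77 and -1.05 in the other 4 T31 animals. The comparisons with T31 are therefore also given without that animal. Counts of the same animals differed between runs. The 6 animals sequenced in more than 1 run were fitted together. Of these, 4 were in both run 1 and run 2: F28 animals 2 and 9 and T35 animals 6 and 11. In this fit 7.17% of the 8150 genes passed the test as lower and 7.62% as higher in run 2. Among the members 10 were lower and 11 higher, but these run 2 libraries also served the rule, which favours high values in them, so nothing is read from the members' counts. Comparisons were kept within a run. P3 and T31, which have the same gestational age, were never sequenced in the same run, and no comparison between them is made.

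The gaps were small for most members. The gap was 1.24 at rank 1, 1.20 at rank 2 and 1.16 at rank 3 on the log2 scale, and exceeded 0.5 in 10 members. Its median was 0.26, a 1.20-fold difference, and it fell to 0.177 at rank 100, a 1.13-fold difference. The genes just inside the limit had gaps of 0.1785 at rank 99 and 0.1774 at rank 100, and both genes just outside had 0.1772, so that no break separated members from other genes. A gap above 0 was found in 547 of the 8150 genes.

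T35 was the lowest of the 3 high groups in 60 members, P0 in 26 and F28 in 14. P7 was below P3 in 56 members. In 20 members every P3 and P7 library lay below every P0, F28 and T35 library of run 2, as did 0.38% of the 8150 genes. These are the values that chose the members, and no test was made of them. The mean in run 2 was under 20 CPM in 43 members and over 100 CPM in 18, and 97 had counts in each of the 54 libraries.

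Rank 1 (ENSOCUG00000009424) stood at 28.4, 20.6 and 20.5 CPM in P0, 27.5 and 24.3 in F28 and 30.7 and 17.4 in T35. In P3 it stood at 8.43, 9.003 and 8.17 CPM, and in P7 at 8.76 and 9.56. The preterm postnatal animals were close to one another and below all the rest. Rank 2 was at 11.9, 6.88 and 11.0 CPM in P0 and at 0.421, 4.03 and 1.43 in P3. It was at 2.59 and 1.68 CPM in P7, with F28 at 6.28 and 13.7 and T35 at 7.38 and 5.01. Its groups were apart as well, at levels near the lower limit of the table.

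Not every high rank had such a pattern. Rank 3 ranged from 0.721 to 18.6 CPM within P0 and from 0.672 to 6.62 CPM within P3. Its gap rested on means of animals that overlapped. Rank 4 had 0 CPM in 1 P3 animal and 18.4 CPM in another, while P7 held 23.7 and 0.129 CPM. Among the next ranks, rank 6 was at 37.9 to 53.0 CPM in P0 and 14.2 to 24.6 CPM in the 5 P3 and P7 animals, with no overlap.

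**Figure D1:**
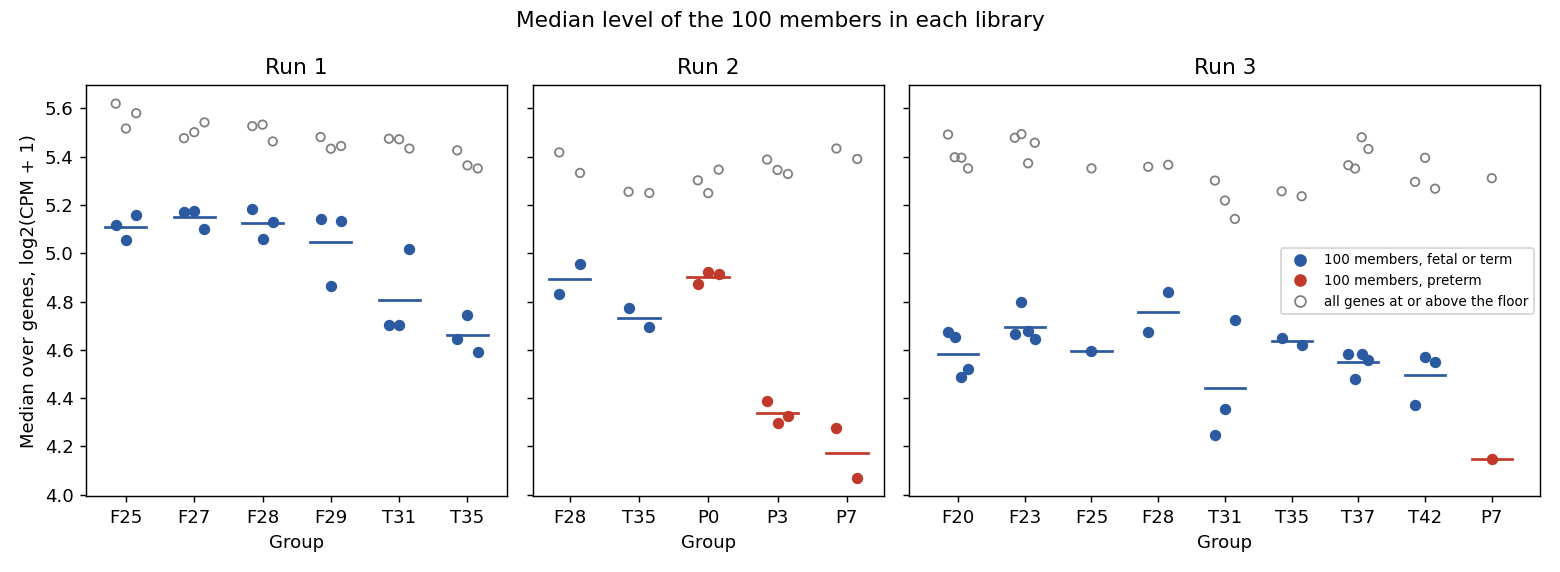
Median level of the 100 members in each library (filled points; blue fetal or term, red preterm) and of all 8150 genes at or above the limit of 2.6 (open points), as log2(CPM + 1), by group within each sequencing run; horizontal lines are group means of the members' medians. P3 and P7 of run 2 stand at 4.34 and 4.17 by choice of the members, and the P7 animal of run 3, which the choice did not use, stands at 4.15.

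The P7 animal of run 3 was not used in choosing the members. Their median level in this animal was 4.15, against 4.48 to 4.58 in the 4 T37 animals, 4.37 to 4.57 in the 3 T42 animals and 4.25, 4.36 and 4.72 in the 3 T31 animals. It was the lowest of all 24 libraries of the run. Column totals scale all genes of T31 a little lower, with a median of 5.22 in T31 and 5.41 in T37 over the 8150 genes, so the levels were also taken relative to that median. On this relative scale the P7 animal was at -1.16, the T37 animals at -0.78 to -0.90, the T42 animals at -0.72 to -0.93 and the T31 animals at -0.42 to -1.05. It again lay below all of them.

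Relative to the same median, P7 in run 2 was at -1.24 ± 0.11 (SD, n = 2) and P3 at -1.02 ± 0.03 (SD, n = 3), while P0 was at -0.40 ± 0.06 (SD, n = 3). F28 and T35 of that run were at -0.48 ± 0.15 and -0.52 ± 0.05 (SD, n = 2 each). The order of these 5 groups follows from the rule.

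The 2 F28 libraries and 2 T35 libraries of run 3 allow the gap to be rebuilt without P0. The lower of their means exceeded the new P7 animal in 76 of 100 members, against 34.6% of the 8150 genes, with a median gap of 0.31 in the members and -0.12 over those genes. With P0 and P3 left out and 1 P7 animal, this gap is taken over fewer groups than that of run 2, which chose the members. The sizes of the gaps are not compared. F28 animal 2 and both T35 animals had also served the rule in run 2, so only the P7 side and F28 animal 7 were independent of it. Against F28 animal 7 alone, the P7 animal was lower in 88 members and in 59.1% of the 8150 genes.

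The comparison of the P7 animal with term pups 6 days after birth, T37, was the closest in days of breathing air. It was not matched for gestational age, which was day 35 in P7 and day 37 in T37. The members were lower in the P7 animal by 0.42 on the log2 scale at the median (quartiles -0.82 and -0.07), where the median was 0.01 over the 8150 genes and -0.02 over all 14817 genes tested. Of the 100 members 76 had a difference below 0, as did 48.7% of the 8150. The difference was larger than 1 log2 unit downwards in 17 members and upwards in 3. The share of the 8150 genes beyond that size is not given here, so nothing is read from these counts. In edgeR's quasi-likelihood test, 4 members were called lower (fold change above 2, Benjamini-Hochberg adjusted p at most 0.05) and 1 higher, against 1.17% and 1.46% of the 8150 genes and 0.85% and 1.24% of all genes tested. At an unadjusted p under 0.05, 25 members were lower and 2 higher, against 10.7% and 11.8% of the 8150. P7 had 1 animal in this run, and its spread was taken from the other groups. The count of 4 became 8 without T37 animal 27 (2.32% of the 8150) and 2 without animal 12, 46 or 47 (0.466% to 0.773%).

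The members called lower were ranks 1, 43, 21 and 91. Ranks 43 and 21 kept the call in all 9 alternatives, while ranks 1 and 91 lost it in 5 of 9: limma-voom, the 15 late libraries of the run, and without T37 animal 12, 46 or 47. Rank 1 was at 2.19 CPM in the P7 animal, which is 17 counts, and at 26.1, 8.30, 14.5 and 11.1 CPM in T37. It was lower than every T37 library and differed by -2.67 ± 0.70 (log2, SE; adjusted p = 0.0428).

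Rank 43 was at 10.5 CPM in the P7 animal and at 50.9, 24.6, 52.4 and 44.6 CPM in T37. It differed by -1.91 ± 0.36 (adjusted p = 0.00662). Its level in the F20 animals was just as low, from 5.92 to 11.2 CPM, and it was at 24.04 and 25.8 CPM in F28 of the same run. Rank 21 (ENSOCUG00000011978) was at 15.7 CPM in the P7 animal and at 45.4, 59.4, 59.3 and 53.0 CPM in T37, a difference of -1.68 ± 0.37 (adjusted p = 0.0189). The P7 animal held the lowest value of rank 21 in the run. In run 2, by contrast, the P3 animals overlapped with P0 in rank 21, at 30.2, 46.2 and 48.5 CPM against 82.6, 44.0 and 42.3 CPM. Rank 91, named because it passed the test, was at 6.43 CPM against 16.5, 16.2, 21.5 and 17.01 CPM in T37 (-1.35 ± 0.35; adjusted p = 0.0407). F28 and T35 of run 3 held 9.90 and 12.6 CPM and 9.72 and 7.60 CPM of it, above the P7 animal and below every T37 animal.

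Ranks 2, 11 and 7 were also among the 6 lowest fitted differences but did not pass. Rank 2 differed by -2.63 ± 1.4003 (adjusted p = 0.345), with 1.29 CPM in the P7 animal and 15.6, 1.13, 11.2 and 7.00 CPM in T37. T37 animal 27 was below the P7 animal. Rank 11 differed by -1.89 ± 0.79 (adjusted p = 0.214) and rank 7 by -1.67 ± 0.61 (adjusted p = 0.149). Of the first 12 ranks, 11 had a difference below 0, and the exception was rank 9 at 0.15 ± 0.35.

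**Figure D2:**
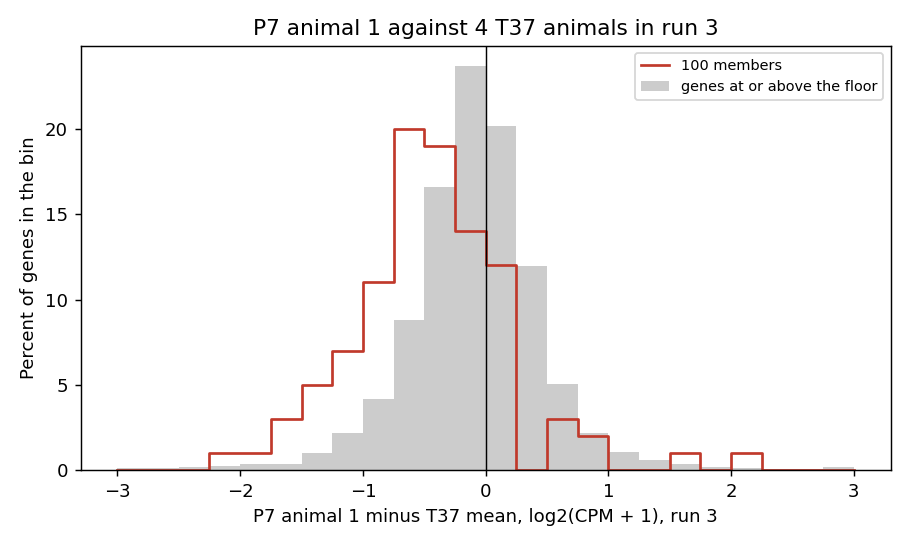
Difference between the P7 animal and the mean of 4 T37 animals in run 3, in log2(CPM + 1), as the percent of genes in bins of 0.25 for the 100 members (red line) and the 8150 genes at or above the limit (grey); values beyond the ends of the axis are counted in the end bins. The members' median is -0.47 and that of the 8150 genes is -0.08 on this scale.

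The member with the clearest opposite difference was rank 14 (ENSOCUG00000033457). It was at 67.7 CPM in the P7 animal and at 7.79, 26.3, 19.2 and 13.7 CPM in T37, with 13.7, 19.6 and 14.2 CPM in T42. The P7 animal was above every T37 and T42 library, by 2.12 ± 0.38 (adjusted p = 0.00377) and 2.13 ± 0.40 (adjusted p = 0.0132). In the same run the T35 animals held 86.9 and 74.7 CPM, the F28 animals 106 and 104 CPM and the T31 animals 42.2, 30.0 and 70.0 CPM. In run 2, which the rule used, T35 held 73.8 and 75.2 CPM and P7 76.8 and 36.5 CPM. Rank 14 thus met the rule by group means of animals that overlapped. In run 3 it stood far lower in T37 and T42 than in the P7 animal. Ranks 25, 81, 59, 95 and 23 were the next highest in the P7 animal, with differences of 1.51, 1.16, 0.96, 0.77 and 0.68, and none passed.

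How the gap of a member related to its difference in the new animal can be described by rank. The median difference from T37 was -0.55 in ranks 1 to 50, with 39 lower, and -0.25 in ranks 51 to 100, with 37 lower.

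**Figure D3:**
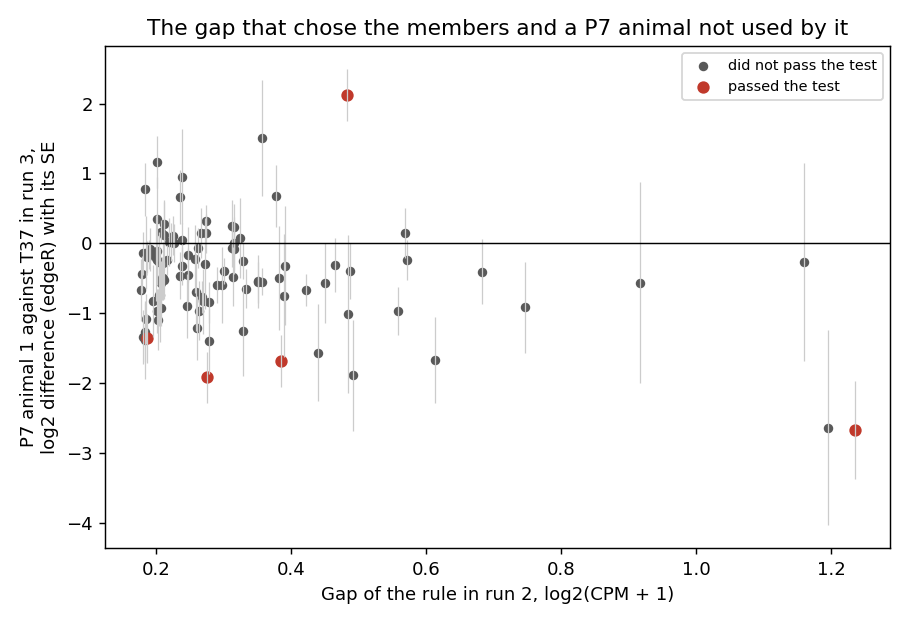
For each of the 100 members, the gap in run 2 that ranked it (horizontal axis, log2(CPM + 1)) and the fitted log2 difference of the P7 animal of run 3 from T37 (vertical axis, with its SE); red points passed the test. The 3 members with gaps above 1 differ by -2.67, -2.63 and -0.27, and the 1 member called higher, rank 14, had a gap of 0.48.

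Set against pups on the day of term birth, T31, the members were lower in the P7 animal by 0.43 at the median, with the 8150 genes at -0.03, and 74 of 100 were below 0 (52.5% of the 8150). Without T31 animal 18 the median was -0.30 and 66 were below 0, with the 8150 genes at -0.05 and 53.8%. By the test 2 members were lower and 0 higher, against 0.417% and 2.34% of the 8150 genes and 0.304% and 1.94% of all genes tested. At an unadjusted p under 0.05 the counts were 20 and 3, against 10.4% and 11.7% of the 8150. DESeq2 called 8 lower and 0 higher (1.23% and 2.93% of the 8150), and limma-voom 2 and 0. The count of 2 lower rose to 5 without T31 animal 4 (0.736% of the 8150) or 18 (1.08%) and to 4 without animal 11 (0.908%), and 1 member was called higher without animal 18 (2.75%).

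Rank 21 was at 46.8, 47.7 and 29.2 CPM in T31 and differed by -1.42 ± 0.37 (adjusted p = 0.0409), a call lost in 4 of 8 alternatives, with limma-voom, in the 15 late libraries and without T31 animal 4 or 11. All 3 T31 animals were above the 15.7 CPM of the P7 animal. Rank 48, named because it passed the test, was at 12.98 CPM against 33.5, 23.9 and 29.0 CPM (-1.19 ± 0.24; adjusted p = 0.00919). Rank 1 was close to the limit, at -2.57 ± 0.71 (adjusted p = 0.0503).

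Against pups 11 days after term birth, T42, the median of the members was -0.38 with the 8150 genes at 0.03, and 79 were below 0 (47.3% of the 8150). The test called 3 lower and 1 higher, against 0.331% and 0.601% of the 8150 genes and 0.25% and 0.466% of all genes tested. At an unadjusted p under 0.05, 22 were lower and 2 higher, against 8.63% and 8.26% of the 8150. Both counts became 0 without T42 animal 14 or 50, where 0.0613% to 0.11% of the 8150 were lower and 0.11% to 0.172% higher. Rank 21 was at 70.3, 35.0 and 64.8 CPM in T42 (-1.84 ± 0.38; adjusted p = 0.0243) and rank 43 at 39.1, 32.8 and 39.6 CPM (-1.80 ± 0.37; adjusted p = 0.0229). Rank 10 was at 45.4 CPM in the P7 animal and at 183, 120.0 and 126 CPM in T42 (-1.64 ± 0.37; adjusted p = 0.0398). For all 3 members the P7 value lay under each T42 value.

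These 3 comparisons share the same P7 library and are not independent of one another. Rank 21 was called lower in each of them, but against T31 and T42 not under every alternative. The P7 animal was below each of the 10 T31, T37 and T42 libraries in 24 members, against 12.2% of the 8150 genes, and above each of them in 2, against 10.6%. It was below every T37 library in 62 members (37.0% of the 8150), below every T42 library in 62 (34.1%) and below every T31 library in 36 (22.1%).

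**Figure D4:**
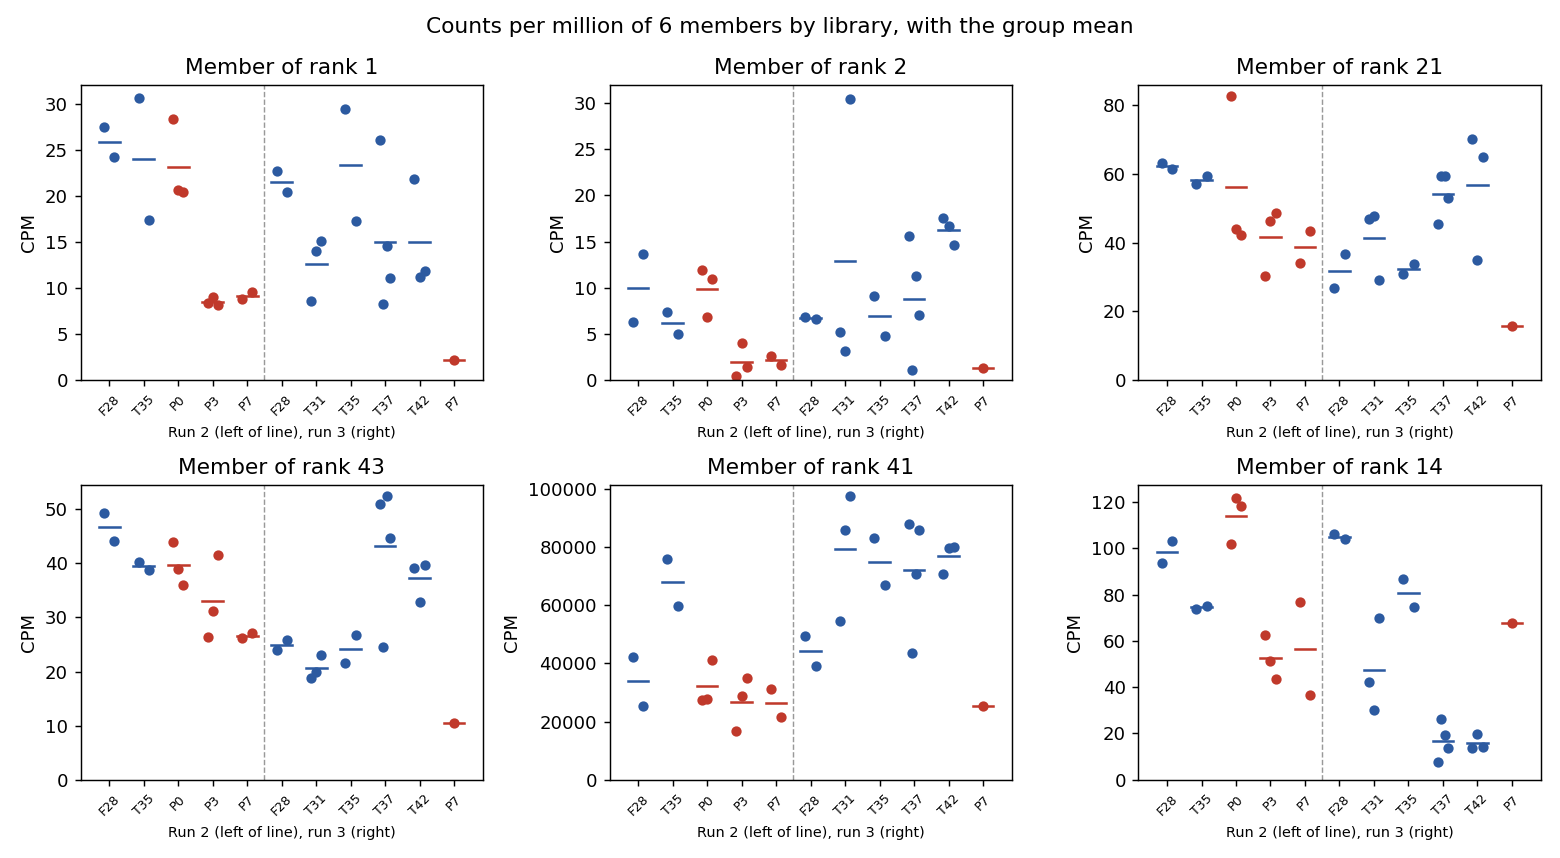
CPM of the members of rank 1, 2, 21, 43, 41 and 14 in each library of run 2 (left of the dashed line) and in the late fetal and postnatal libraries of run 3 (right), blue for fetal or term and red for preterm, with group means as lines. In rank 21 the P7 animal of run 3 is at 15.7 CPM, below every T31, T37 and T42 animal, and in rank 14 it is at 67.7 CPM, above every T37 and T42 animal.

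The member with the most counts was rank 41, singled out after its values were seen. In run 2 it held 27476, 27621 and 41104 CPM in P0, 16787, 28621 and 35103 CPM in P3 and 31251 and 21540.2 CPM in P7. T35 held 75953 and 59658 CPM, and F28 42204 and 25375 CPM, so P0, P3, P7 and F28 overlapped and T35 stood above. In run 3 the P7 animal had 25208 CPM, with 87758, 43549, 70633 and 85875 CPM in T37. The P7 value was below each T31, T37 and T42 value of rank 41, and the differences were -1.3997 ± 0.47 from T37 (adjusted p = 0.113), -1.71 ± 0.49 from T31 (adjusted p = 0.0578) and -1.58 ± 0.48 from T42 (adjusted p = 0.137). In F20 it was at 10097 to 27577 CPM. The T31, T37 and T42 animals were all above the F20, F23 and F25 animals of run 3 in rank 41, and the P7 animal was within the range of the F20 animals.

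From T31 to T37 and T42 the members moved both ways. Their median difference was -0.03 at T37 (quartiles -0.34 and 0.35) and 0.02 at T42 (quartiles -0.30 and 0.33), with the 8150 genes at -0.04 and -0.03. The test called 4 lower and 5 higher at T37 (1.77% and 3.72% of the 8150 genes) and 5 lower and 6 higher at T42 (1.57% and 3.63%). In both, 8 members were called. The comparisons share the T31 animals, and the share of the 8150 genes called in both is not given here, so nothing is read from that count. Without T31 animal 18 the medians were 0.14 and 0.12, with the 8150 genes at -0.02 and -0.03. Below 0 were 37 and 39 members, against 51.6% and 52.4% of the 8150. In that fit 10 members were called higher at T42 (3.94% of the 8150). Without T31 animal 11 the lower calls were 8 at T37 (2.71% of the 8150) and 9 at T42 (2.44%), and without T37 animal 47 those at T37 were 2 (1.34%).

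The largest fall was in rank 23, which was at 93.3, 33.1 and 25.4 CPM in T31, 10.8, 14.2, 15.4 and 11.3 CPM in T37 and 8.69, 10.7 and 5.81 CPM in T42. No T37 or T42 animal reached the lowest T31 animal, and the differences were -2.09 ± 0.31 (adjusted p = 0.000214) and -2.64 ± 0.35 (adjusted p = 7.02e-05). The P7 animal had 19.2 CPM, below the lowest T31 animal and above every T37 and T42 animal. Rank 14 fell by 1.67 to T37 and by 1.68 to T42, and rank 5 by 1.31 and 1.90. Rank 20 was called lower in both, but this rested on T31 animal 18 with 464 CPM, since the other T31 animals had 38.4 and 41.8 CPM and T37 34.02 to 68.4 CPM. Without that animal its differences turned to 0.34 and 0.42.

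Rank 30 (ENSOCUG00000007211) rose most. It was at 4.48, 2.11 and 4.21 CPM in T31, 30.1, 9.85, 34.9 and 28.0 CPM in T37 and 16.9, 15.02 and 25.6 CPM in T42. The T31 animals were below all the others, by 2.66 ± 0.47 (adjusted p = 0.000839) and 2.35 ± 0.48 (adjusted p = 0.00295), and the P7 animal was at 9.90 CPM. Ranks 57 and 18 rose as well, by 1.33 and 1.29 at T42, and rank 8 by 1.11, while rank 46 differed by 1.17 ± 0.50 and did not pass (adjusted p = 0.127). In rank 18 the T31 animals held 782, 522 and 419 CPM, the T37 animals 1101 to 1683 CPM and the P7 animal 805 CPM. For ranks 8, 18 and 30 the P7 animal was above the T31 mean.

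Whether the members were low in preterm lungs only was examined across term birth in run 1. Their median difference of T31 from F29 was -0.26, with the 8150 genes at 0.05, and 71 of 100 were below 0 (43.4% of the 8150). The edgeR test called 0 lower and 0 higher, against 0.0% and 0.0491% of the 8150. At an unadjusted p under 0.05, 13 were lower and 4 higher, against 6.39% and 11.6%. DESeq2 called 2 lower (0.294%) and 0 higher (0.822%), and limma-voom called 0 in either direction (0.0% lower and 0.0245% higher). Without T31 animal 15 the median was -0.29 and 77 were below 0, with the 8150 genes at 0.04 and 45.6%. In that fit the test called 8 lower and 1 higher, against 1.02% and 1.98% of the 8150. On the scale relative to the 8150 genes, the T31 animals of run 1 were at -0.77, -0.77 and -0.42, and the F29 animals at -0.34, -0.57 and -0.31, so the groups overlapped through animal 15.

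Rank 20 showed the split within T31 most widely. Its CPM in run 1 was 28.5, 24.7 and 608 in T31 animals 1, 10 and 15, and 252, 405 and 211 in F29. In T35 of that run it was at 31.0, 63.2 and 44.5 CPM. Rank 30 was lower in T31 without such a split, at 9.05, 8.34 and 8.44 CPM against 18.4, 15.1 and 22.3 CPM in F29 (-1.08 ± 0.20; adjusted p = 0.0559).

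T35, one of the high groups of the rule, stood below F28 in run 1. Its 3 animals were at -0.78, -0.62 and -0.76 on the relative scale, and the F28 animals of that run at -0.34 to -0.47. T35 animals 6 and 11 stood at -0.48 and -0.55 in run 2, which are values the rule used. Both, with F28 animals 2 and 9, are also among the animals of run 1, so that comparison is not independent of the rule. In run 3 both T35 animals were at -0.61, with F28 at -0.68 and -0.52. The mean of T31, T37 and T42 in run 3 was below F28 animal 7 in 75, 64 and 67 members, against 60.0%, 49.1% and 57.6% of the 8150 genes, where the P7 animal was below it in 88. Without T31 animal 18 the T31 count was again 75, against 56.3%.

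Before birth, from F25 to F29 in run 1, the members' median difference was 0.15 with the 8150 genes at -0.02. The test called 11 higher and 3 lower, against 4.44% and 2.38% of the 8150. The count of 3 became 1 when any 1 animal of F25 or F29 was left out (2.0% to 2.54% of the 8150), and 7 were higher without F25 animal 13 or 18 (3.89% and 3.74%). Rank 2 rose by 4.21 ± 0.91 (adjusted p = 0.0052), from 2.599, 0.164 and 0.337 CPM in F25 to 23.0, 18.7 and 12.1 CPM in F29. Rank 11 rose by 1.46 ± 0.40 (adjusted p = 0.0204) and rank 6 by 1.11 ± 0.30 (adjusted p = 0.0214). For ranks 2 and 11 the F20 and F23 animals of run 3 were low as well, at 0.294 to 3.13 CPM and 1.91 to 5.65 CPM, with 1.29 and 2.96 CPM in the P7 animal.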

How the data were processed

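The authors deposited 1 table of whole-number read counts per Ensembl gene, without normalization. They prepared QuantSeq FWD libraries, trimmed adapters with BBduk, used STAR for alignment to OryCun2.0 and HTSeq-count for gene counts; versions are not given in the sources used here. All 54 columns were mapped to animals, and 0 were left unmapped. No symbol table matched the identifiers (0 of the members), so lists of lung cell type markers and pathways could not be applied, the labelled tissue was not checked against markers, and no sequences are shown. 0 pairs of libraries were identical.

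The members and lists were chosen with earlier results of these data known. Counts were tested with edgeR 4.0.16 in R 4.3.3 (quasi-likelihood, TMM, at least 0.5 CPM in at least 3 fitted libraries, Benjamini-Hochberg over all genes tested) within run 1 (18 libraries) or run 3 (24 libraries); all 100 members passed the filter. Genes with more than a 2-fold difference and adjusted p no higher than 0.05 were called. Differences given as ± are fitted log2 values with their SE. Runs 1 and 2 were compared in a fit of 15 libraries of 6 animals sequenced in more than 1 run. The animal was a block, a pairing given by the labels. Only 8 libraries of 4 animals compare runs 1 and 2 directly. The others, of run 3 or of animals without a run 2 library, enter the contrast through run 3 and the spread. Alternatives were DESeq2 1.42.0, limma-voom (limma 3.58.1), other filters, the adjusted p alone, the 15 late libraries of run 3, and each animal left out. Named members were the first 12 ranks, the 6 lowest and 6 highest differences of P7 from T37, the 4 lowest and 4 highest of T42 from T31, and those higher in P7 by the test; any other is named as seen afterwards. Reads carry no molecular identifiers.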

Additional observations from a re-analysis of the deposited data

Results flagged for a closer look

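Of 29 groups of 4 animals examined in run 3, 1 had an animal far from the others. The groups were the members' medians in F20, F23 and T37, and the T37 values of the 25 named members and of rank 41. The member of rank 25 was at 41.4, 44.1 and 46.3 CPM in 3 T37 animals of run 3 and at 156.7 CPM in T37 animal 27. On the log2(CPM + 1) scale the distance to its neighbour was 0.917 of the whole range of the group, above Dixon's critical ratio for 4 values. Chance alone flags about 1 in 20 such groups. In the P7 animal rank 25 was at 193 CPM.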

How the results depend on the processing

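Of 270 counts and medians recomputed under the alternatives, 216 stayed within the limits and 54 moved. Shares in brackets below are of the 8150 genes unless stated. Members called lower in P7 than T37 numbered 4 (1.17%). They were 8 with DESeq2 (2.7%), 2 with limma-voom (0.54%) and 2 in the 15 late libraries (0.405%). With 1 animal left out they were 2 to 8 (0.466% to 2.32%), and the median ranged from -0.37 to -0.48. For T31 the 2 lower calls (0.417%) became 8 with DESeq2 (1.23%) and 6 with no filter (0.503%). They were 5 where all libraries had to hold 10 counts (0.722% of 7897 genes). With 1 animal left out 4 to 5 were lower (0.736% to 1.08%) and 0 to 1 higher (2.26% to 2.75%). For T42 the 3 lower calls (0.331%) became 5 with DESeq2 (1.34%), 0 in the 15 late libraries (0.184%) and 0 to 3 with 1 animal left out (0.0613% to 0.27%). The 1 higher call (0.601%) became 0 in the 15 late libraries (0.344%) and 0 to 1 with 1 animal left out (0.11% to 0.319%). With the adjusted p alone T37 against T31 gave 7 lower and 13 higher (10.7% and 10.4% of the 8150 genes), T42 against T31 9 and 11 (812 and 819 of the 8150), F29 against F25 8 and 18 (6.94% and 8.6%), and run 2 against run 1 24 and 53 (28.8% and 41.7%). With 1 animal left out T37 against T31 gave 2 to 8 lower (1.18% to 2.71%). T42 against T31 then gave 4 to 9 lower (1.12% to 2.44%) and 4 to 10 higher (2.96% to 4.1%). T31 against F29 gave 0 to 8 lower (0.0% to 1.02%) and 0 to 1 higher (0.0% to 1.98%). F29 against F25 gave 1 lower (2.0% to 2.54%), 7 to 11 higher (3.66% to 4.96%) and medians of 0.0861 to 0.2262. T31 against F29 gave 2 lower with DESeq2 (0.294%) and 1 with no filter (0.0736%). Run 2 against run 1 gave 6 higher where all libraries had to hold 10 counts (6.08% of 8062 genes). Without the animal block run 2 against run 1 gave 10 lower (7.3%) and 8 higher (7.39%), with a median of 0.31 and the 8150 genes at 0.13. Of the 100 members, 80 stayed with TMM-scaled CPM, 96 and 78 with pseudocounts of 0.5 and 5, 87 and 78 with limits of 2 and 3.5, and 61 to 93 with 1 library left out (61 without T35 animal 11, 63 without P7 animal 4, 65 without P7 animal 3). A further 597 values were of named members in P7 against T37 and of any member called in a comparison within a run. Of these, 508 kept direction and side of the threshold, 86 lost the threshold and 3 reversed. They include members that are not named ones, so the 508 do not describe the named members alone. Rank 9 against T37 reversed, at -0.032 without T37 animal 47 (to 0.27 without animal 46). Rank 20 against T31 reversed in T37 and T42, at 0.34 and 0.42 without T31 animal 18 (to -2.44 and -2.36 without animal 11). Why values moved was not tested. A single P7 animal in run 3 limits every comparison with term pups, and members under 20 CPM carry few counts.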
